A study of Mus musculus with 19 samples.

Results

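The Trim12 and Trim30 gene cluster lies on mouse chromosome 7 and was followed here through 7 genes, Trim12a, Trim12c, Trim30a, Trim30b, Trim30c, Trim30d and Trim34a. Its members were taken by name, as every probe set of the array that the platform annotation pairs with one of these genes. This gave 11 of 41345 probe sets, of which 8 name 1 gene and 3 name 2 genes. The genes had been picked for their levels across the groups of these same arrays, so their values are given as a description with no test. The deposited log2 values came from the livers of 19 mice aged 2 to 3 months, each on its own Affymetrix array. Genotypes were coded WT, KO and TG, and for 4 weeks before harvest the animals had been on a diet labelled normal (ND) or high fat (HFD). Each of the 6 groups had 3 arrays, except TG on HFD with 4.

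The labels give the genotype only as these codes, and the series title names Kielin/chordin-like protein (Kcp), a secreted regulator of BMP and TGF-beta signalling. They give no strain, sex, litter, cohort, deleted exon or transgene promoter. Strain background, litter and cohort can therefore not be told apart from genotype or diet in any comparison below. All animals shared the tissue and the age range. Kcp itself lay between 5.35 and 5.81 on the 7 TG arrays, between 1.77 and 2.82 on the 6 WT arrays and between 1.64 and 2.30 on the 6 KO arrays (log2, 1 probe set). The WT and KO arrays overlapped, and where the probes of Kcp lie relative to the deletion is not given in the sources used here. All 9 measured hepatocyte markers had group means of at least 2 in every group, and their mean per array lay between 9.95 and 10.37. Over all probe sets the correlation of arrays within a group ran from 0.968 to 0.9793, and that of WT HFD replicate 1 with the other groups was on average the lowest of all arrays, 0.9633.

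Tripartite motif (TRIM) proteins carry a RING finger, a B-box and a coiled coil, and many act as E3 ubiquitin ligases, which attach ubiquitin to other proteins. The mouse cluster stands where primates have TRIM5, whose protein blocks incoming retroviral capsids, and it has grown by repeated duplication into the Trim12 and Trim30 groups of near copies. Gene content and sequence of such clusters are known to vary between laboratory strains. Trim30a is the best studied copy. It is induced by interferon and by Toll-like receptor signals, and its protein restrains NF-kappa-B activation by promoting the loss of TAB2 and TAB3. Many TRIM genes are interferon-stimulated genes in macrophages and other immune cells, while hepatocytes make up most of the liver by mass.

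On the assembly GRCm38.p6 the RefSeq gene table places the genes in the order Trim6, Trim34a, Trim5, Trim12a, Gm15133, Trim34b, Trim12c, Trim30b, Trim30c, Trim30a, Trim30d and Trim30e-ps1. The promoters of Trim12a, Trim12c, Trim30a and Trim30d are printed because these 4 genes show how closely the copies resemble each other. Each window covers 250 bases before and 50 bases after the RefSeq transcript start (GRCm38.p6), written 5′ to 3′ on the gene's strand. Capitals mark a match to the core of the interferon-stimulated response element, searched on both strands as GAAA, any 2 bases and GAAA, and found here on the opposite strand. Trim12a lies at chr7:104315446-104315745, Trim12c at chr7:104353300-104353599, Trim30a (the first of its 2 starts) at chr7:104465144-104465443 and Trim30d at chr7:104507800-104508099, all on the minus strand.
Trim12a: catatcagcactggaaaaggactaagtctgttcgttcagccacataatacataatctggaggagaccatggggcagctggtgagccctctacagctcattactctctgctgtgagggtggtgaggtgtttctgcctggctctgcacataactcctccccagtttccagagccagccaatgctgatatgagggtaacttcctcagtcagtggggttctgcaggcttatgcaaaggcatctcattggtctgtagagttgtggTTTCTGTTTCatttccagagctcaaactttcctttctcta
Trim12c: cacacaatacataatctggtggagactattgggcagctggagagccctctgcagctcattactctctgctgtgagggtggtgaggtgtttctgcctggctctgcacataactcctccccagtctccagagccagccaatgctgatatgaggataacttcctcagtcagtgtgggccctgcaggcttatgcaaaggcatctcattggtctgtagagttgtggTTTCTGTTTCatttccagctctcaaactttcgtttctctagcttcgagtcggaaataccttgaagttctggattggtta
Trim30a: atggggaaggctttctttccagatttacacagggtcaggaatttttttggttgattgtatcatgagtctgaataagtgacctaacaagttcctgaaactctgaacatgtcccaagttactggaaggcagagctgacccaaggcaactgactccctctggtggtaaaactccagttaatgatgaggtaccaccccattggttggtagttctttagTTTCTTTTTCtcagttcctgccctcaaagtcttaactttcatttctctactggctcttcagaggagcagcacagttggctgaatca
Trim30d: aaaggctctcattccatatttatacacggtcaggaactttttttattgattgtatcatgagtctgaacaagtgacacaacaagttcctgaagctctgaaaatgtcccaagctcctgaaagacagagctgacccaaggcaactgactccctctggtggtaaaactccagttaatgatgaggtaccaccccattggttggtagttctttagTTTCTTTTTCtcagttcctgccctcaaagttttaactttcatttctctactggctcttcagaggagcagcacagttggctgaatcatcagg

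The Trim12a and Trim12c windows were identical at 247 of 261 aligned bases (94.6%). Both hold the same match, TTTCTGTTTC, at bases 261 to 270 of the Trim12a window and at bases 222 to 231 of the Trim12c window. Trim5, which shares probe sets with Trim12c, matched Trim12a at 241 of 241 aligned bases. The Trim30a and Trim30d windows were identical at 276 of 294 aligned bases (93.9%), and both hold TTTCTTTTTC, at bases 215 to 224 and 210 to 219. RefSeq gave 8 windows for the 7 genes, and the motif was also found in the second Trim30a start and in Trim34a. It was not found in the windows of Trim30b and Trim30c. This motif occurred in 1131 of 32851 mouse promoter windows of the same length (3.44%). The core of the gamma-activated site, searched on both strands as TTC, any 3 bases and GAA, occurred in 8.30% of windows and among the members in Trim30c alone, as TTCTTAGAA at bases 189 to 197. These matches describe letters and not sites of binding.

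The WT mice on HFD differed from the other groups at several probe sets of the cluster, in both directions. Trim12a and Trim30d were lower there than in WT mice on ND, while 1 of the probe sets shared by Trim12c and Trim5, the probe set shared by Trim34a and Trim34b, and Trim12c itself were higher. Without overlap between the arrays of both groups, 5 of 11 probe sets differed between WT HFD and WT ND, against 13.4% of all 41345 probe sets. Against WT HFD, 5 of 11 differed in KO HFD (all probe sets 12.1%) and 5 of 11 in TG HFD (all probe sets 10.2%). These 3 comparisons share the 3 WT HFD arrays, and the members were chosen on them, so the counts are descriptions. In whole liver, fewer cells of a type and less RNA per cell cannot be told apart.

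**Figure D1:**
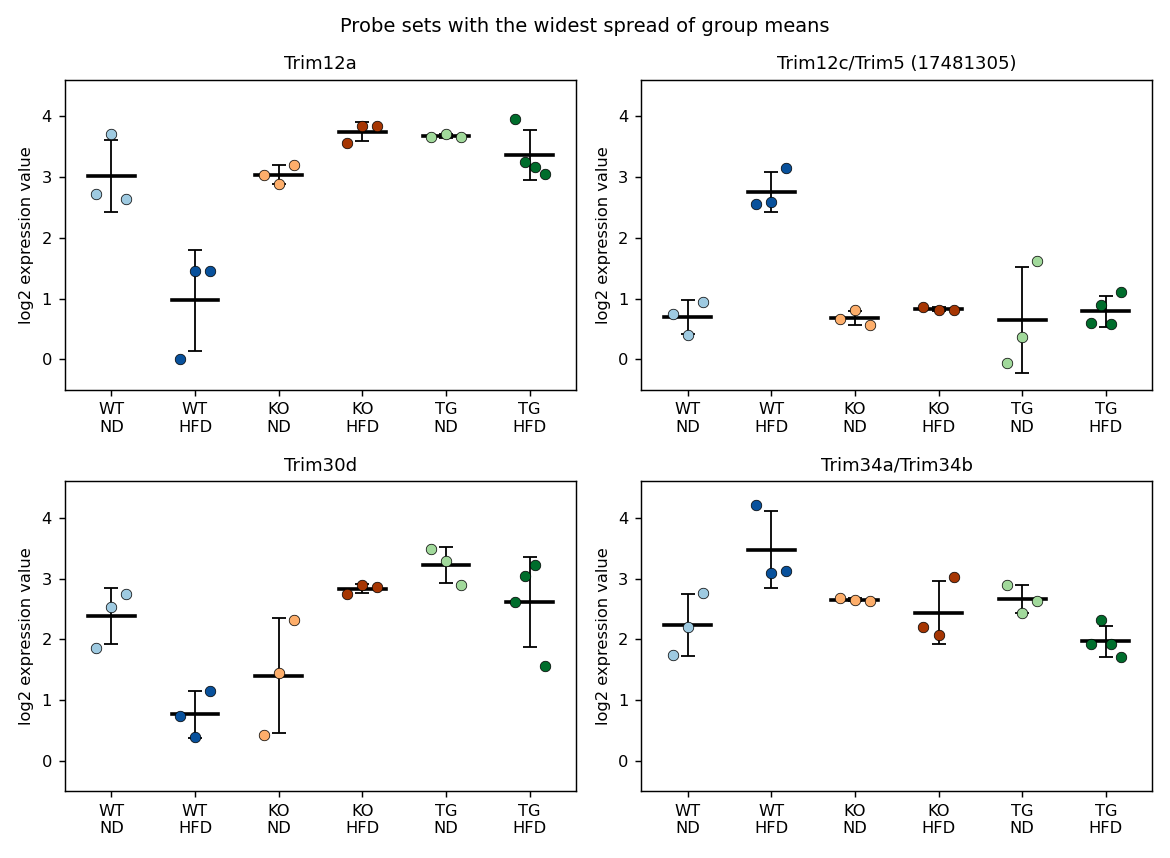
Log2 expression value (vertical axis) of 4 probe sets in the 6 groups (horizontal axis). Each point is 1 array, the wide bar is the group mean and the whiskers span 1 SD on each side. The WT HFD arrays lie at 1.45 or below for Trim12a and at 2.55 or above for the Trim12c/Trim5 probe set, outside the other 16 arrays in both.

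Trim12a is a TRIM5-like gene at the Trim5 end of the cluster, with 1 probe set (17494353) that names no other gene. Its log2 values were 2.72, 3.70 and 2.63 in WT ND and 0.01, 1.45 and 1.45 in WT HFD. They were 3.04, 2.88 and 3.19 in KO ND and 3.56, 3.84 and 3.84 in KO HFD. In TG ND they were 3.66, 3.71 and 3.66, and in TG HFD 3.96, 3.25, 3.16 and 3.05. All 3 WT HFD arrays were below all 16 others, which ran from 2.63 to 3.96. The difference of means between WT HFD and WT ND was -2.04 (SE 0.59), that between KO HFD and WT HFD 2.77 (SE 0.49), and that between TG HFD and WT HFD 2.38 (SE 0.52). The lowest value came from WT HFD replicate 1, and without it these differences were -1.56, 2.29 and 1.90. By group mean the order was WT HFD 0.97, WT ND 3.02, KO ND 3.03, TG HFD 3.36, TG ND 3.68 and KO HFD 3.75, and among neighbours in it only WT HFD and WT ND did not overlap.

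Outside the WT HFD mice the Trim12a differences were smaller. KO HFD lay above KO ND by 0.71 (SE 0.13) with no overlap, and KO ND lay below TG ND (-0.64, SE 0.09) with no overlap. Arrays of KO ND and WT ND overlapped (0.02, SE 0.35), as did those of TG HFD and TG ND (-0.32, SE 0.21). Over all 41345 probe sets, 0.186% had all WT HFD arrays below all others, as Trim12a had.

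Trim12c is the near copy of Trim12a further along the chromosome, with 1 probe set (17481307) that names no other gene. Its WT HFD values were 0.50, 2.14 and 1.46, against 0.11, 0.40 and 0.34 in WT ND and 0.33, 0.41 and 0.24 in KO HFD. The KO ND arrays gave 0.27, 0.19 and 0.40, the TG ND arrays 0.22, 0.06 and 0.26, and the TG HFD arrays 1.15, 0.28, 0.27 and 0.37. WT HFD was higher than WT ND by 1.08 (SE 0.48) and higher than KO HFD, the difference of KO HFD from it being -1.04 (SE 0.48), both without overlap. The TG HFD array at 1.15 lay inside the WT HFD range, so those groups overlapped (-0.85, SE 0.52). TG HFD also lay above TG ND without overlap (0.34, SE 0.22). All arrays except 1 in WT HFD were below 2, the level under which 56.5% of all genes had their mean and where background can make differences look smaller.

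Both remaining Trim12c probe sets also name Trim5, the mouse gene closest in name to primate TRIM5. Probe set 17481305 gave 2.55, 2.59 and 3.14 in WT HFD and 0.75, 0.40 and 0.94 in WT ND. Its values were 0.66, 0.81 and 0.57 in KO ND, 0.86, 0.81 and 0.81 in KO HFD, -0.06, 0.37 and 1.62 in TG ND, and 0.59, 0.90, 0.58 and 1.10 in TG HFD. All 3 WT HFD arrays were above all 16 others, of which the highest was 1.62. WT HFD exceeded WT ND by 2.06 (SE 0.25), while KO HFD differed from WT HFD by -1.93 (SE 0.19) and TG HFD by -1.97 (SE 0.23). The means of the other 5 groups lay between 0.64 and 0.83, and their arrays overlapped. Over all probe sets 0.341% had all WT HFD arrays above all others.

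The second shared probe set, 17494325, did not follow this pattern. It gave 1.46, 2.12 and 1.20 in WT HFD, 1.46 on each WT ND array, and 2.23, 2.24 and 2.04 in TG ND. KO ND lay at 1.16, 0.98 and 1.48, KO HFD at 1.31, 1.11 and 1.97, and TG HFD at 1.46, 1.35, 0.96 and 1.64. TG ND was the group that stood apart from WT ND (0.71, SE 0.07), and KO ND and TG HFD lay below TG ND (KO ND minus TG ND -0.96, SE 0.16, and TG HFD minus TG ND -0.82, SE 0.16). The value 1.46 occurred on 5 arrays exactly, so the small SE of the WT ND comparison is not a measure of animal spread. Such repeats were common, since 17712 of 41345 probe sets (42.8%) held a value found on more than 1 array. Which transcripts the probe sets of the cluster read, including those that name 1 gene, is not given in the sources used here.

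Trim30d is a near copy of Trim30a at the far end of the cluster, with 1 probe set (17494408) that names no other gene. Its values were 1.86, 2.54 and 2.75 in WT ND and 0.74, 0.40 and 1.16 in WT HFD. KO ND spread widely, at 0.43, 1.45 and 2.32, whereas KO HFD lay at 2.75, 2.89 and 2.87. TG ND gave 3.49, 3.29 and 2.90, and TG HFD 2.61, 3.04, 3.22 and 1.57. The WT HFD arrays were below every WT ND, KO HFD, TG ND and TG HFD array, and overlapped only with KO ND. WT HFD differed from WT ND by -1.61 (SE 0.35), and KO HFD and TG HFD lay above WT HFD by 2.07 (SE 0.22) and 1.84 (SE 0.43).

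Trim30d was also the member with the widest differences on the normal diet. KO ND lay below TG ND (-1.83, SE 0.57) and TG ND above WT ND (0.85, SE 0.32), both without overlap, while KO ND and WT ND overlapped (-0.98, SE 0.61). In KO mice HFD was higher than ND by 1.44 (SE 0.55) without overlap, the opposite sign to WT mice. The order of group means was WT HFD 0.77, KO ND 1.40, WT ND 2.38, TG HFD 2.61, KO HFD 2.84 and TG ND 3.23. Up to KO HFD each group overlapped with the next, and the KO HFD and TG ND arrays ran from 2.75 to 2.89 and from 2.90 to 3.49.

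Trim30a, the copy whose protein is known to restrain Toll-like receptor signalling, was dim, with 1 array of 19 above 2. It gave 0.55, 0.92 and 0.73 in WT ND, 0.54, 0.68 and 0.42 in WT HFD, and 1.47, 1.38 and 1.57 in TG ND. KO ND lay at 0.93, 1.18 and 0.61, KO HFD at 1.51, 0.67 and 1.29, and TG HFD at 2.31, 0.97, 0.74 and 1.77. TG arrays were above WT arrays on each diet, by 0.74 (SE 0.12) on ND and by 0.90 (SE 0.37) on HFD, without overlap. KO HFD overlapped with WT HFD (0.61, SE 0.26), and WT HFD with WT ND (-0.19, SE 0.13). Trim30a had a mean of only 0.73 in WT ND, so a fall as large as that of Trim12a or Trim30d in WT HFD could not have been seen. Whether Trim30a shared their lower level in WT HFD can therefore not be told.

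Trim30b and Trim30c, of which less is known, were below 2 on all 19 arrays. Trim30b ranged from 0.49 to 1.26 and Trim30c from 0.13 to 1.66. TG ND lay above WT ND for Trim30b by 0.28 (SE 0.11) without overlap, and KO ND lay below TG ND (-0.35, SE 0.13). No comparison of Trim30c was free of overlap, with group means between 0.56 in WT HFD and 1.13 in TG ND.

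Trim34a belongs to another TRIM branch at the Trim6 end of the cluster and has 2 probe sets of its own. Probe set 17481274 ranged from 1.09 to 3.58, with an SD of 1.15 in TG ND, and its groups overlapped in all 9 comparisons. Probe set 17494322 ranged from 0.27 to 1.59, and KO ND (0.57, SE 0.30) and TG ND (0.28, SE 0.11) lay above WT ND without overlap. The probe set 17481284 names both Trim34a and its copy Trim34b. It gave 4.21, 3.09 and 3.13 in WT HFD and 1.75, 2.20 and 2.76 in WT ND. The other values were 2.68, 2.65 and 2.64 in KO ND, 2.20, 2.08 and 3.03 in KO HFD, 2.90, 2.44 and 2.64 in TG ND, and 1.93, 2.32, 1.92 and 1.71 in TG HFD. All WT HFD arrays were above all 16 others, whose highest value was 3.03. WT HFD was above WT ND by 1.24 (SE 0.47), and KO HFD and TG HFD differed from WT HFD by -1.04 (SE 0.47) and -1.50 (SE 0.39). In TG mice HFD was below ND (-0.69, SE 0.19) without overlap.

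**Figure D2:**
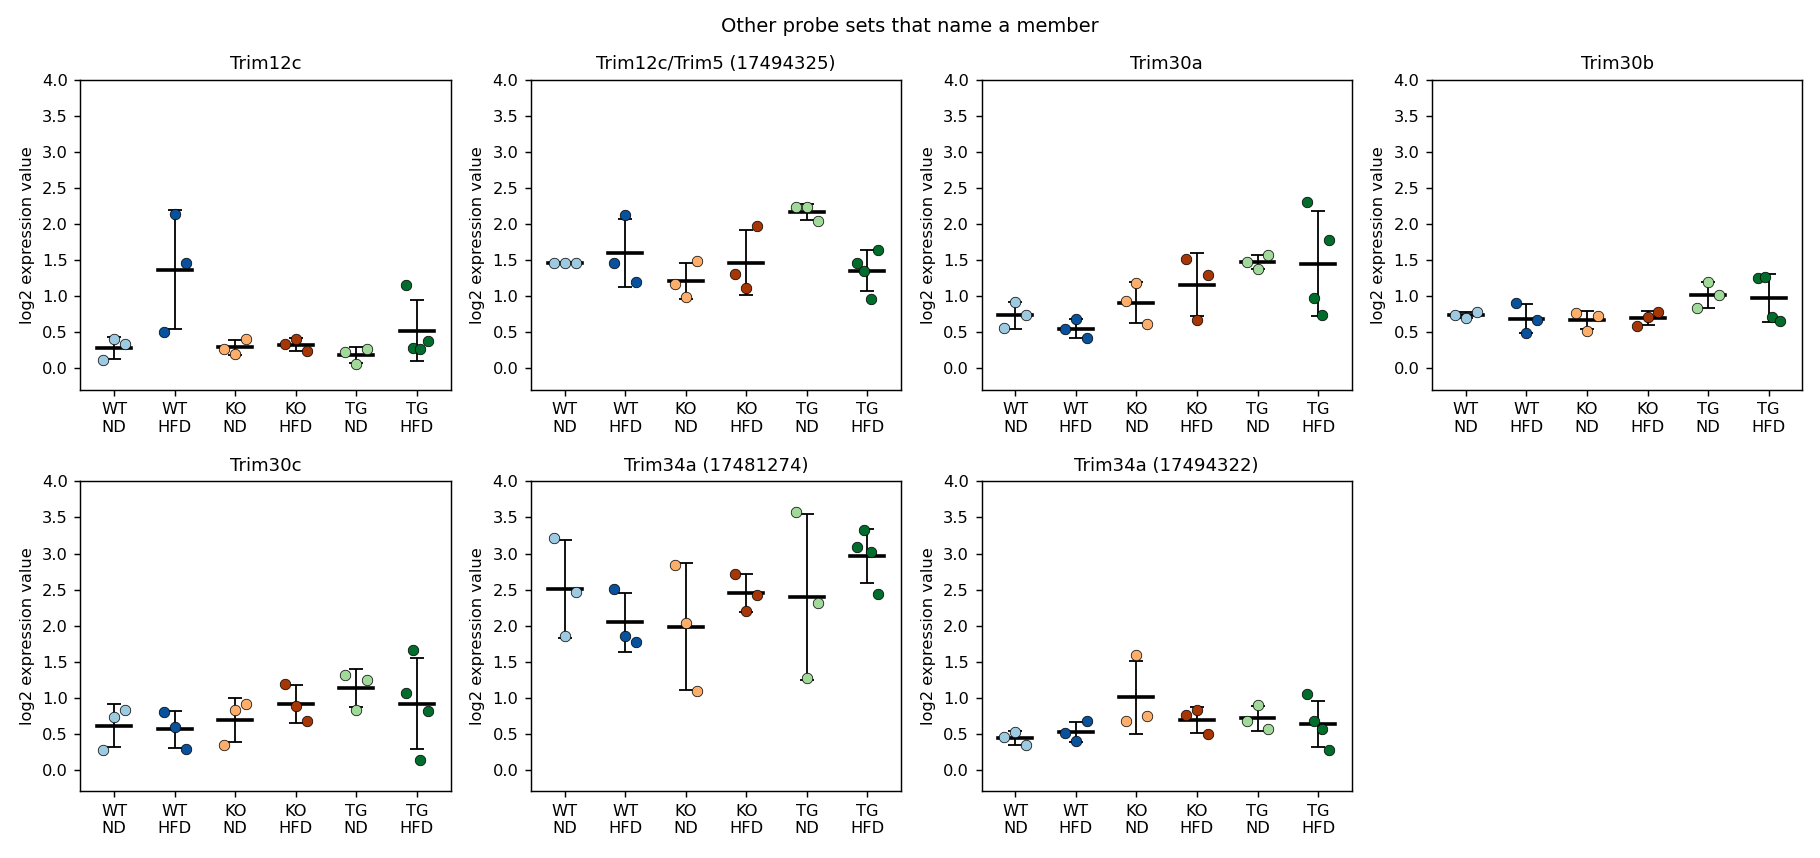
Log2 expression value (vertical axis) of the other 7 probe sets that name a member, by group (horizontal axis), with each array as a point, the group mean as a wide bar and 1 SD on each side as whiskers. Trim30b and Trim30c lie below 2 throughout, and the Trim12c arrays of WT HFD reach 2.14.

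Of the 11 probe sets, 3 had all WT HFD arrays outside the range of the 16 others, against 0.527% of all probe sets. In the comparisons without WT HFD, values were free of overlap for 1 of 11 in KO ND against WT ND (all probe sets 15.4%), 5 of 11 in TG ND against WT ND (13.9%) and 5 of 11 in KO ND against TG ND (17.5%). The counts were 2 of 11 for diet in KO mice (14.5%), 3 of 11 for diet in TG mice (8.07%) and 0 of 11 for KO HFD against TG HFD (10.3%). All 5 in TG ND against WT ND were higher in TG ND (all probe sets, 6.63% higher), and all 5 in KO ND against TG ND were lower in KO ND (all probe sets, 8.61% lower). In KO ND against WT ND the count became 4 of 11 without KO ND replicate 3 and 2 of 11 without any 1 of the WT ND arrays. A count without overlap can only stay or rise when an array is left out. The share of all probe sets was not recomputed for fewer arrays.

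**Figure D3:**
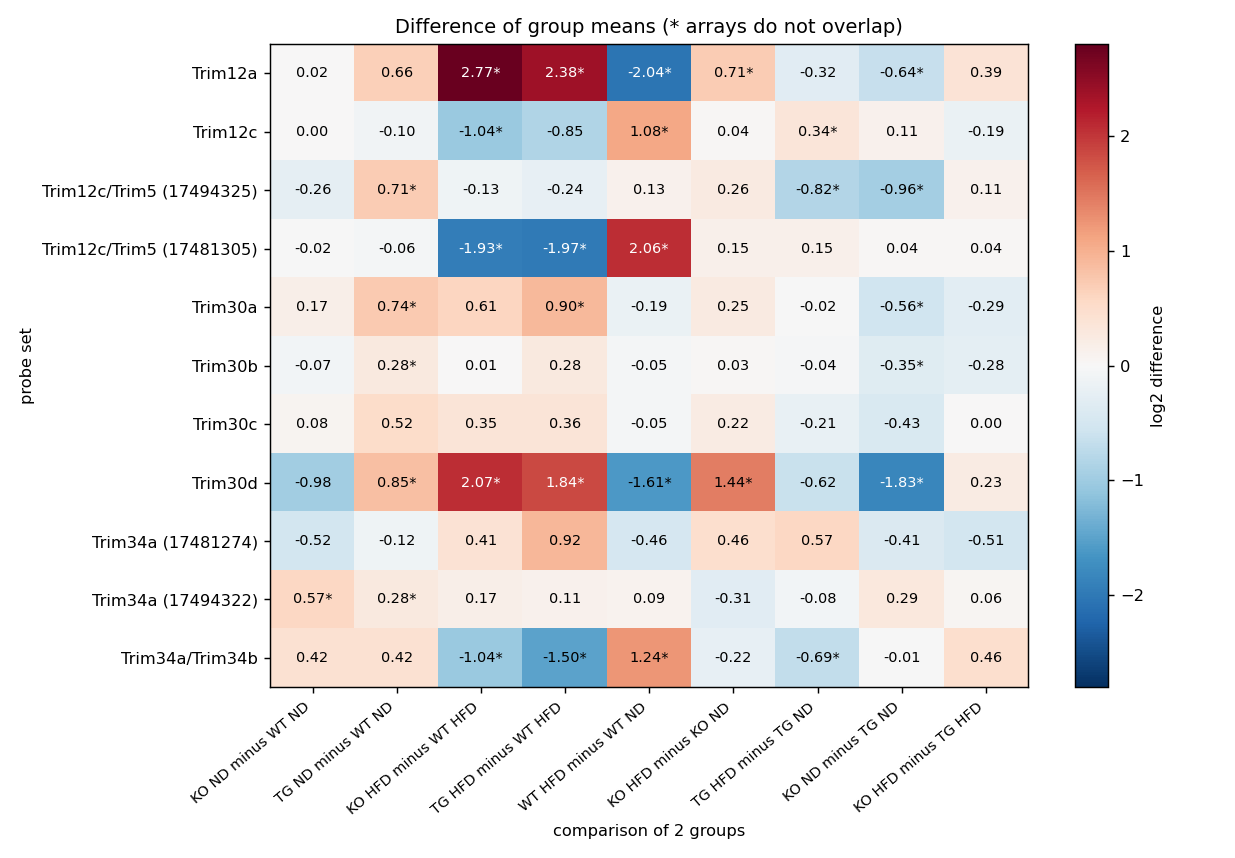
Difference of group means on the log2 scale (colour and printed value) for the 11 probe sets (vertical axis) in the 9 comparisons of 2 groups (horizontal axis), with a star where the arrays of both groups do not overlap. The 3 columns that contain WT HFD hold the darkest cells, with 2.77 for Trim12a in KO HFD minus WT HFD and 2.06 for a Trim12c/Trim5 probe set in WT HFD minus WT ND.

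Across the 19 arrays Trim12a had a Pearson r of 0.73 with Trim30d, -0.81 with probe set 17481305 and -0.69 with the Trim34a/Trim34b probe set. Trim12c and probe set 17481305 had r = 0.68. These coefficients describe arrays that share groups and a normalisation. After each group mean was subtracted, Trim12a had r = 0.14 with Trim30d, -0.11 with probe set 17481305 and 0.81 with Trim12c. Before that step its r with Trim12c was -0.46, of the opposite sign. WT HFD replicate 1 was the lowest of its group for both genes (Trim12a 0.01, Trim12c 0.50). TG HFD replicate 1 was the highest of its group for both (3.96 and 1.15). How far the 0.81 rests on these arrays was not tested. Among 9654 other genes with a mean of at least 2, those most like Trim12a over the 19 arrays were Rpl29 (r = 0.88), which encodes a ribosomal protein, Sirt2 (0.83), an NAD-dependent deacetylase, and Mov10 (0.80), an RNA helicase. Rpl29 had a group mean of 9.07 in WT HFD and between 9.45 and 9.76 in the other groups. For Trim12c they were Atp6v0e2 (0.81), D630045J12Rik (0.80) and Rbm15 (0.74), and Atp6v0e2, a subunit of the vacuolar proton pump, had means of 3.36 in WT HFD and 2.03 in WT ND. For Trim30d they were Mlkl (0.81), the executor of necroptosis, Apbb1ip (0.80) and Atp11a (0.79), a phospholipid flippase with means of 4.35 in WT HFD and 5.53 in WT ND.

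The genes around the cluster were tested, as the choice of members did not use them. The chromosome segment within 1 Mb of the outermost members held 103 other measured genes, of which 84 were olfactory receptor genes. Only 1 of the 103 had a mean of at least 2, Fam160a2 at 3.64, singled out after its value was seen, and the median of their means was 0.49, so most were at levels where a difference would be hard to see. In all 9 comparisons 0 of the 103 passed limma at an adjusted p under 0.05, with between 4 and 9 at an unadjusted p under 0.05 in each. With a limma fit using a mean trend and robust spread, 1 passed in TG HFD against TG ND. In WT HFD against WT ND their median difference was 0.04, and across all genes 1.32% passed. On the flanks Olfr649 and Trim6 precede the members and Trim30e-ps1 and Olfr651 follow them, while Gm15133 lies between members, and none of these 5 was among genes that passed.

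**Figure D4:**
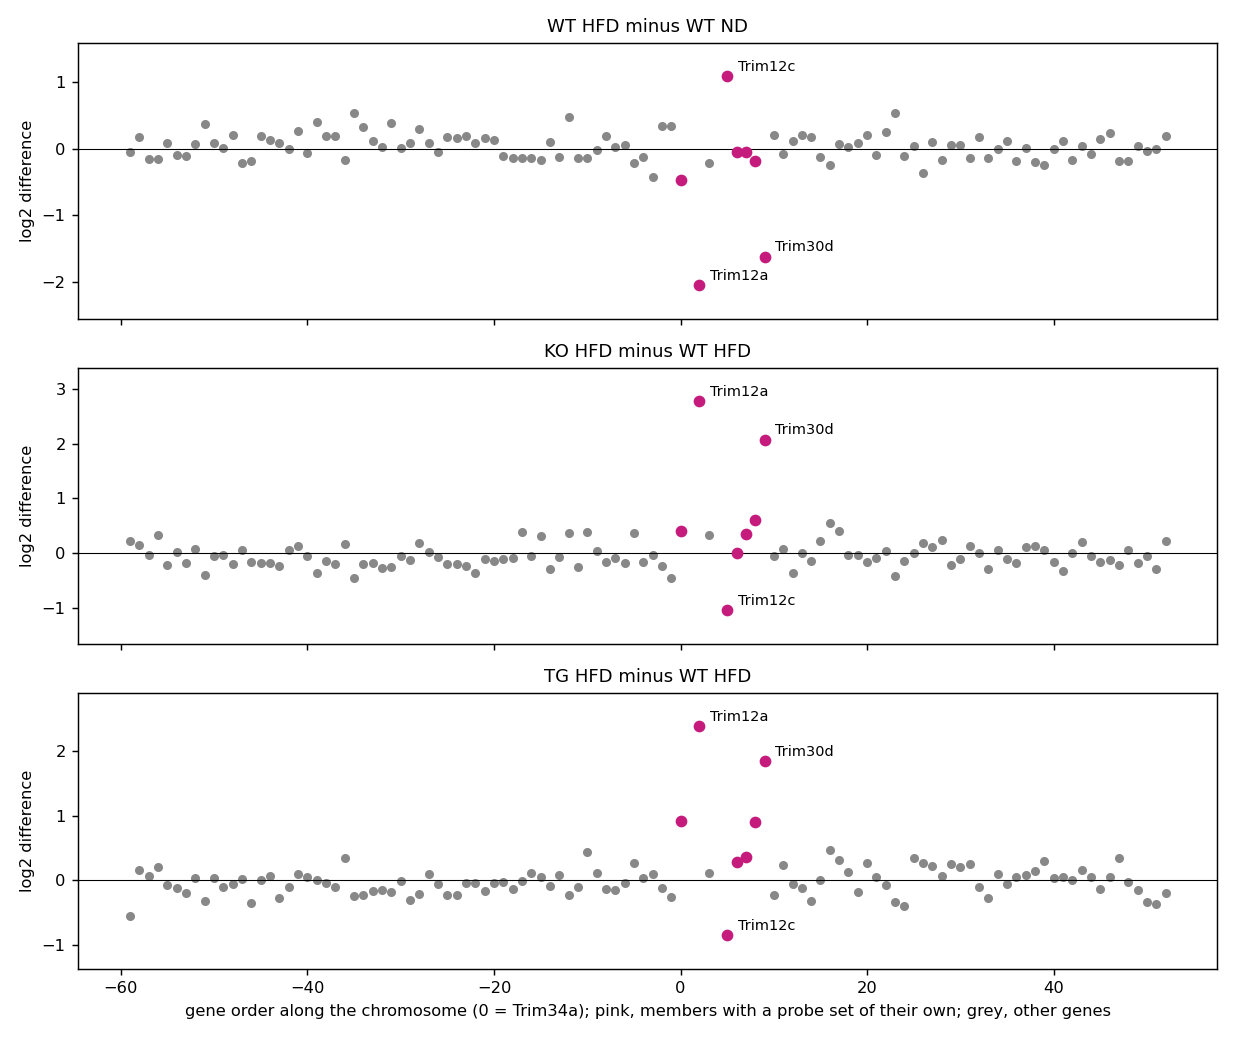
Difference of group means on the log2 scale (vertical axis) for the members with a probe set of their own (pink) and the 103 other measured genes within 1 Mb (grey), in their order along the chromosome (horizontal axis, genes counted from Trim34a), for the 3 comparisons that contain WT HFD. In the top panel Trim12a (-2.04), Trim30d (-1.61) and Trim12c (1.08) lie farther from 0 than any grey point. The members were chosen on these same values, and only 1 of the 103 grey genes had a mean of at least 2. The contrast is therefore a description and no test of the region.

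Brighter genes lie farther away, and the 10 nearest on each side with a mean of at least 2 were added after the values were seen. None of these 20 passed limma in WT HFD against WT ND or in KO HFD against WT HFD, where across all genes 0.338% passed. In TG HFD against WT HFD 1 of the 20 passed, against 3.57% of all genes. This was Il18bp, which encodes the decoy that binds interleukin-18, higher by 1.30 (limma adjusted p = 0.00472). Ppfibp2, a liprin-family scaffold gene, was lower in KO ND than in WT ND (-0.76, limma adjusted p = 0.0037) and than in TG ND (-0.56, limma adjusted p = 0.0238). It was the only 1 of the 20 to pass in either, where 2.98% and 4.20% of all genes passed. A single call among 20 is not read as a result about the region.

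Of 57 other Trim genes elsewhere in the genome or flanking the members, 21 had a mean of at least 2. None passed limma in WT HFD against WT ND, where 5 had an unadjusted p under 0.05, nor in KO HFD or TG HFD against WT HFD, with 7 and 4. Across all genes 1.32%, 0.338% and 3.57% passed in these comparisons. In KO ND against WT ND 4 passed, against 2.98% of all genes. Trim24, a transcriptional co-regulator, rose by 0.85 (SE 0.17, limma adjusted p = 0.00853) and Trim7 by 1.22 (limma adjusted p = 0.0282). Trim2, best known from neurons, fell (-0.87, SE 0.15, limma adjusted p = 0.00202), and Trim14, a mitochondrial adaptor in antiviral signalling, was also lower (-0.73, limma adjusted p = 0.0402). The same 4 genes passed in KO ND against TG ND, with 1.03, 1.51, -1.27 and -0.71, against 4.20% of all genes. Trim14 lost its call in both comparisons whichever of their 6 arrays was left out, Trim24 lost it for 1 of 6 in KO ND against WT ND, without KO ND replicate 3, and Trim7 lost it for 4 of 6 in KO ND against WT ND. With the mean of its probe sets Trim7 differed by 0.56 there and lost its call. In KO HFD against TG HFD Trim17 was lower (-0.67, limma adjusted p = 0.00893), against 2.35% of all genes, and it lost its call with only the arrays of these groups in the fit (limma adjusted p = 0.142). Its means there, 0.49 in KO HFD and 1.16 in TG HFD, were below 2. No Trim gene passed in TG ND against WT ND, for diet in KO mice or for diet in TG mice, with 4, 6 and 4 at an unadjusted p under 0.05, where 1.30%, 0.803% and 0.906% of all genes passed.

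Interferon-response genes were examined because Trim30a is interferon-inducible, and 37 of 43 listed genes were measured. In WT HFD against WT ND 1 of 37 passed, Herc6, a ligase for the ubiquitin-like ISG15, which was higher by 1.10 (limma adjusted p = 0.0364) and lost its call in 5 of 6 fits that left out 1 array. The list median there was 0.05. In KO HFD against WT HFD 0 passed limma, with 6 at an unadjusted p under 0.05 and a median of 0.22. Across all genes 0.753% rose in WT HFD against WT ND and 0.194% in KO HFD against WT HFD.

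TG mice differed more on this list. In TG ND against WT ND 8 of 37 rose and 0 fell, with a median of 0.42, against 0.924% of all genes that rose. Bst2, which tethers budding virus to the cell surface, rose by 2.25 (SE 0.27, limma adjusted p = 0.000125). Zbp1, a sensor of nucleic acids in Z form, rose by 1.07 (limma adjusted p = 0.0159), and Irf7, a master regulator of interferon genes, by 1.06 (limma adjusted p = 0.0164). Zbp1 and Irf7 each lost the call in 5 of 6 fits that left out 1 array, with limma adjusted p up to 0.0919 and 0.0859. In TG HFD against WT HFD 7 rose and 0 fell, against 1.68% of all genes, with a median of 0.39, including Bst2 (1.69), Irf7 (1.24) and Oas2 (1.64). With only the arrays of the groups compared in the fit, Bst2 lost its call in TG HFD against WT HFD (limma adjusted p = 0.0535) and Irf7 in TG ND against WT ND (limma adjusted p = 0.113). The first count was between 1 and 5 when any 1 of its 6 arrays was left out, and the second between 3 and 7, the lowest without WT HFD replicate 1. In KO ND against TG ND 13 fell and 0 rose, with a median of -0.58, against 2.49% of all genes, and between 8 and 12 passed when 1 array was left out, the lowest without TG ND replicate 2. The remaining counts were 1 lower in KO ND against WT ND (Cmpk2, -0.82, all genes 2.98%), 2 higher for diet in KO mice (Parp14, 0.81, and Cmpk2, 1.01, all genes 0.803%), 0 for diet in TG mice with 3 at an unadjusted p under 0.05, and 3 lower in KO HFD against TG HFD (Bst2, Irf7 and Oas1g, all genes 2.35%). The share in KO ND against WT ND was no higher than that of all genes. Among these genes Cmpk2 lost its calls in 2 of 6 and 3 of 6 fits that left out 1 array, Parp14 in 2 of 6, and Irf7 and Oas1g in 5 of 7 each.

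Genes that work with TRIM30A, namely Toll-like receptors, NF-kappa-B components, TAB proteins and inflammasome genes, were also taken as a list, with 22 of 25 measured. In WT HFD against WT ND 1 passed, Ikbkg, the regulatory subunit of the IKK complex, which was lower (-0.49, limma adjusted p = 0.0404), against 1.32% of all genes that passed. In KO HFD against WT HFD 0 passed limma and 0 had an unadjusted p under 0.05. In TG HFD against WT HFD 4 rose, namely Tlr7 (1.30, limma adjusted p = 0.00943), Tlr4 (0.56), Casp1 (0.62) and Nfkbia (0.59), and 0 fell, against 1.68% of all genes that rose, with a list median of 0.09. Both Tlr4 means were below 2, at 1.63 in TG HFD and 1.07 in WT HFD. With only the arrays of these groups in the fit 0 of the list passed, and with 1 array left out between 1 and 5 did, the lowest without WT HFD replicate 3. In TG ND against WT ND 1 rose, against 0.924% of all genes, namely Casp1 (0.66, limma adjusted p = 0.0415), which lost its call in 5 of 6 fits that left out 1 array. Tab2, the direct target of TRIM30A, was lower in KO ND than in TG ND (-0.53, limma adjusted p = 0.0434), as was Tlr2 (-0.64, limma adjusted p = 0.0457), and 4.20% of all genes passed there. Both were named after their values were seen, and 0 partner genes passed in this comparison after quantile normalization or with only the arrays of these groups in the fit. The Tlr2 means there, 1.13 in KO ND and 1.77 in TG ND, were below 2. With 1 array left out 0 passed in 4 of 6 fits, namely those without KO ND replicate 2 or 3 or without TG ND replicate 1 or 3. Tlr3 rose with diet in KO mice (0.74, limma adjusted p = 0.0293, all genes 0.803%), and Irf3 was higher in KO HFD than in TG HFD (0.67, limma adjusted p = 0.0171, all genes 2.35%). With 1 array left out in turn, Ikbkg and Tlr3 each lost the call in 5 of 6 fits, Irf3 in 2 of 7, and Tlr4 and Casp1 in TG HFD against WT HFD in 3 and 2 of 7. No gene of the list passed in KO ND against WT ND, with 4 at an unadjusted p under 0.05, or for diet in TG mice, with 7.

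Macrophage markers moved with the TG groups, in which Trim30a and Trim30d were above WT on both diets without overlap. On HFD, Trim12a was also higher in TG than in WT mice, while probe set 17481305 and the Trim34a/Trim34b probe set were lower. Trim12a and Trim30d were higher in KO HFD than in WT HFD as well. All 23 listed Kupffer cell and macrophage markers were measured, and their mean per array lay between 4.84 and 5.36 in TG ND and between 4.76 and 5.32 in TG HFD. It lay between 3.80 and 3.89 in WT ND, 3.80 and 3.99 in WT HFD, 3.80 and 4.24 in KO ND and 4.16 and 4.45 in KO HFD. Of the 23, 15 rose in TG ND against WT ND and 16 in TG HFD against WT HFD (limma), with medians of 1.22 and 1.25. Across all genes 0.924% and 1.68% rose in these comparisons. Their part in the TG values of the members and of the interferon-response genes was not tested. In WT HFD against WT ND the list's median was 0.09 with 1 marker lower, Marco, where 1.32% of all genes passed in either direction. The array means of the markers overlapped between both groups, and their part in the WT HFD values of the members was not tested. In KO HFD against WT HFD the median was 0.51, with 1 of 23 higher, Folr2, against 0.194% of all genes. The array means of the markers did not overlap there, and their part in the KO HFD values was not tested. Markers of T and NK cells lay low, with array means between 0.93 and 1.49 over all groups. Of 13 measured, 0 had a group mean of at least 2 in the WT and KO groups, 2 in TG ND and 1 in TG HFD. Neutrophil markers had array means between 0.52 and 1.99, with 0 of 8 at a group mean of at least 2 in any group. Array means lay between 1.18 and 2.57 for B and plasma cell markers, between 5.45 and 6.13 for liver endothelial markers and between 2.14 and 2.77 for dendritic cell markers, a list that also holds Bst2.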

How the data were processed

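RNA from whole liver was labelled with biotin and hybridised to Affymetrix arrays, per the labels' protocols. The deposited values are log2 levels per probe set that the authors had normalized. RMA, affy and limma are listed without version or role in the submitters' processing notes, and the log base was inferred from the values. The genome build of the arrays is not given in the sources used here. The members and gene lists were chosen with earlier results of these data known.

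All 19 arrays were fitted in 1 model of 6 group means with limma 3.58.1 in R 4.3.3, over 22180 genes with 1 symbol. A gene with several probe sets was represented by the brightest. Calls are at an adjusted p under 0.05 (two-sided, Benjamini-Hochberg within each of 9 comparisons), and for other genes SE is limma's. Members have no p, and their SE comes from the SDs of both groups. The procedure was run on simulated data in which only genes with a mean of at least 2 were changed. That run does not show how well changes in dimmer genes are found. Each title has a different animal number, the only ground for treating replicates as separate mice. P-values otherwise measure the spread between these samples. Arrays have no read depth, and their number limits the precision.

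The text names every member, the nearest genes on each side, called Trim and partner genes up to 6 of smallest p, up to 4 interferon genes per comparison, and 3 genes most like each of Trim12a, Trim12c and Trim30d. Tab2, Tlr2, Nfkbia, Il18bp, Ppfibp2, Fam160a2, Marco and Folr2 were added after their values were seen. Probe sets with several symbols or none entered no test. Promoters are RefSeq's and were searched for 2 motifs on both strands. The alternatives changed the centring, the normalization, the filter on dim genes, the arrays in the fit, the choice of probe set and the arrays left out.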

Additional observations from a re-analysis of the deposited data

Results flagged for a closer look

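Among TG mice on HFD, the only group of 4, a single array stood apart from the other 3 in 5 of 37 genes or probe sets examined, and chance sets 1 array apart in about 1 of 20. TG HFD replicate 1 was the highest of the 4 for Trim12c at 1.15 and the lowest for the interferon-response gene Oas1g at 1.67. TG HFD replicate 3 stood apart for Gm15133 at 0.06 and for Trim6 at 0.97, and TG HFD replicate 2 for Trim7 at 2.71. For Gm15133 the other 3 arrays all lay at 0.39, and the rate of about 1 of 20 does not hold for such repeated values. All TG HFD values of Trim12c, Gm15133 and Trim6 were below 2, near the background.

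For 3 probe sets the arrays on HFD lay wholly on one side of those on ND in one genotype and wholly on the other side in another. For Trim12a the diet difference was -2.04 in WT mice and 0.71 in KO mice. For Trim30d it was -1.61 in WT mice and 1.44 in KO mice. For the Trim34a/Trim34b probe set it was 1.24 in WT mice and -0.69 in TG mice. These differences between genotypes were not tested, since the members were chosen on the same values. Over all probe sets, 13.4%, 14.5% and 8.07% were free of overlap between diets in WT, KO and TG mice. How many of them reversed between genotypes was not counted, so whether 3 is unusual cannot be told.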

How the results depend on the processing

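All 825 recomputed differences of members moved by less than 1 SD of the arrays, and 422 of 528 recomputed counts stayed within 1.5 times. The first limit is a wide one. For example, Trim34a probe set 17481274 ran from -0.71 to 0.44 in TG ND minus WT ND and stayed within it. Of 99 member differences, 27 with overlap, of at most 0.41 in size, changed sign in at least 1 alternative, nearly always with 1 array left out. The 31 without overlap kept their sign, which leaving out an array could not have changed. No paired analysis was possible because the labels give no replicate numbers shared between groups.

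With only the arrays of both groups in the fit, fewer genes were called. The interferon-response counts became 5 (TG ND against WT ND), 4 (TG HFD against WT HFD), 1 (KO diet), 1 (KO HFD against TG HFD) and 0 (WT diet). The partner counts became 0 in KO diet, KO HFD against TG HFD, KO ND against TG ND, TG HFD against WT HFD, TG ND against WT ND and WT diet, and the Trim count became 0 in KO HFD against TG HFD. Among genes with a mean of at least 2, the partner counts were 2 (KO diet, KO HFD against TG HFD, TG ND against WT ND, WT diet) and 1 (KO ND against WT ND, TG diet). There the interferon-response count was 2 in KO ND against WT ND, and the Trim counts were 1 for diet in TG and in WT mice and 0 in KO HFD against TG HFD. With an intensity trend and robust spread, partner counts were 1 in KO ND against TG ND, 1 in KO ND against WT ND, 0 in TG ND against WT ND and 2 in WT diet. The interferon-response count was then 5 in KO HFD against TG HFD, and 1 neighbour gene was called in TG diet. Partner counts were 0 (KO ND against TG ND) and 1 (KO ND against WT ND) after quantile normalization, 1 (KO ND against WT ND) with probe sets averaged and 0 (WT diet) after median centring. The brighter neighbours, added after seeing the data, gave 1 in KO ND against WT ND, TG HFD against WT HFD and KO ND against TG ND. For these changes the cause was not tested.

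With 1 array left out, the members' counts without overlap ran from 1 to 4 (KO ND against WT ND), 2 to 4 (KO diet), 3 to 5 (TG diet) and 0 to 1 (KO HFD against TG HFD). Leaving out an array can only keep or raise such a count, and the share of all probe sets was not recomputed. Interferon-response counts ran from 1 to 5 (TG ND against WT ND), 3 to 7 (TG HFD against WT HFD), 8 to 12 (KO ND against TG ND), 1 to 5 (KO HFD against TG HFD), 0 to 3 (KO diet), and 0 to 1 (WT diet, KO ND against WT ND, KO HFD against WT HFD). Partner counts ran from 1 to 5 (TG HFD against WT HFD), 0 to 2 (KO HFD against TG HFD, KO ND against TG ND) and 0 to 1 (KO diet, TG ND against WT ND, WT diet). Neighbour counts ran from 0 to 1 in KO diet, TG diet, KO HFD against TG HFD, KO ND against TG ND and KO ND against WT ND. Trim counts ran from 2 to 3 (KO ND against WT ND) and 0 to 1 (TG diet, TG HFD against WT HFD).

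Most members lay close to the background of the array, where signal limits what can be seen, and 3 arrays a group limit each mean.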
